A study of Mus musculus with 13 samples.

Results

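Double-cyclin cells are taken here as liver cells in which at least 5 Ccnd1 transcripts and at least 1 Ccne1 transcript were counted inside the cell outline. The rule picked 5536 of 131221 cells, 4.22%, in 13 mouse liver sections. The cells were thus chosen by the counts of both genes, and their own levels and the share of such cells are given as a description, with no test. Ccnd1 encodes cyclin D1, which partners the kinases Cdk4 and Cdk6 in G1 and responds to growth signals. Ccne1 encodes cyclin E1, which partners Cdk2 when a cell passes from G1 into S phase. After partial hepatectomy the remaining hepatocytes, most of them quiescent before, re-enter the cycle, and cyclin D1 is a long-known marker of that step in rodent liver.

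The sections came from male C57BL/6 mice aged 2 months on regular chow, after surgery that removed 2/3 of the liver. Transcripts of 100 genes, many of them Wnt genes and hepatocyte genes that differ along the lobule, were detected in place on frozen sections. There was 1 section each from 3 mo and 6 mo, 3 sections from 14 d, and 2 from every earlier time, which were 0 h, 24 h, 48 h and 72 h. Nothing in the labels ties each section to an animal of its own, and p-values measure the spread between sections, which may be technical. The 14 d sections make up 1 slide on their own, so that time and that slide cannot be told apart. Both 24 h sections carry the same slide position, and they were joined to 1 library wherever libraries were compared. Sections held 4586 to 15817 cells and 1678015 to 9619206 counts.

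The panel held 2 other cyclins, and neither was found at a usable level. Ccnb1, the mitotic cyclin B1, had 4 counts in all double-cyclin cells, of 62 in all cells. Ccna1, a cyclin best known from the germ line, had 13 counts there, of 163 in all cells. A count of either was present in 17 of the 5536 double-cyclin cells and in 36 of the 45367 cells with neither Ccnd1 nor Ccne1 (both-zero cells). The cells are therefore called by the 2 transcripts that define them, and no phase of the cycle is assigned.

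Double-cyclin cells were almost absent at 0 h and common at 24 h. At 0 h they made up 0.0985% of cells in section 1 (11 cells) and 0.00847% in section 2 (1 cell). At 24 h the shares were 9.04% and 8.44%, and at 48 h they were 9.48% and 13.7%. At 72 h they were 9.64% and 6.45%, and at 14 d 2.24%, 3.07% and 1.89%. The 3 mo section had 0.628% (51 cells, 95% exact interval 0.468% to 0.825%) and the 6 mo section 0.383% (41 cells, interval 0.275% to 0.519%). These intervals cover counting error only. All 6 sections from 24 to 72 h lay above all 3 from 14 d, and every later section lay above both 0 h sections. The 24 to 72 h sections held 4395 of the double-cyclin cells, 79.4%.

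**Figure D1:**
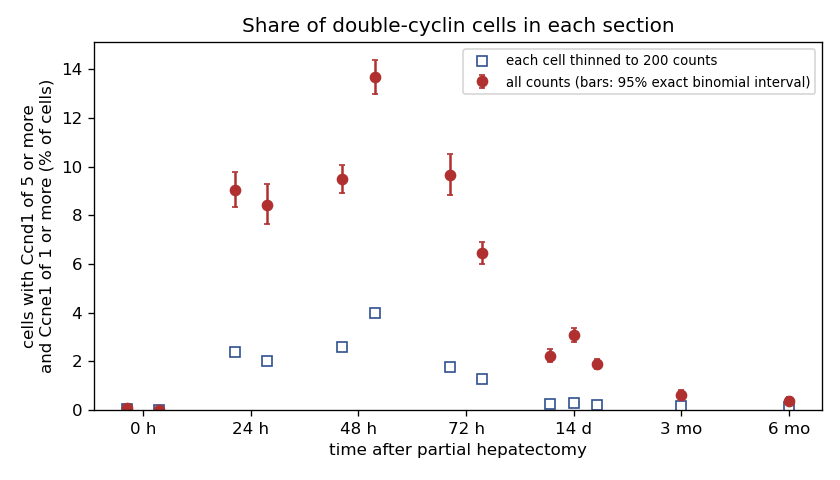
Share of double-cyclin cells (y axis, percent of cells) in each section, by time after partial hepatectomy (x axis). Red points use all counts with 95% exact binomial intervals. Blue squares use only cells with at least 200 counts of the whole panel, thinned to 200. Shares of 6.45% to 13.7% at 24 to 72 h lie above those of the other times, and the thinned shares keep 24 to 72 h above the rest.

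Sections differed in counts per cell, and a deeper cell reaches both thresholds more easily. Each cell with at least 200 counts was therefore thinned to 200, and shallower cells were left out. These were 4537 of 10718 cells at 6 mo but 679 of 11479 in 14 d section 1. The share was then 0.0237% and 0.0115% at 0 h, 2.37% and 2.02% at 24 h, and 2.58% and 3.99% at 48 h. It was 1.76% and 1.29% at 72 h, 0.241%, 0.298% and 0.203% at 14 d, 0.162% at 3 mo and 0.113% at 6 mo. The 6 sections from 24 to 72 h again lay above all others.

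Most double-cyclin cells were near the thresholds. The median Ccnd1 count was 7 and the highest 100. Exactly 5 Ccnd1 transcripts were found in 1254 of them, 22.7%, and 1382 had at least 10. Just outside the rule lay 1708 cells with 4 Ccnd1 transcripts and a Ccne1 transcript. A single Ccne1 transcript was found in 3676 cells, 66.4%, and 760 had 3 or more, up to 12.

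The 2 cyclins went together within sections at 24 to 72 h. A Ccne1 transcript was found in 40.0% and 40.2% of cells with at least 5 Ccnd1 transcripts at 24 h, against 22.1% and 19.6% of cells with fewer. At 48 h the shares were 39.2% and 36.8%, against 26.0% and 28.5%. At 72 h they were 27.9% and 24.4%, against 17.8% and 16.7%. The gap was narrower at 14 d, where the shares were 12.8%, 15.7% and 13.3%, against 9.27%, 12.3% and 10.4%. At 3 mo the shares were 7.40% against 6.999%, and at 6 mo 5.16% against 4.60%. Double-cyclin cells also had more counts of the other 98 genes, with medians of 414 and 455 per cell at 24 h, against 340 and 354 in both-zero cells. At 14 d the medians were 668, 670 and 524, against 654, 638 and 464. The part of depth in the joint detection was not tested.

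The position of each cell along the lobule was read from its surroundings, as the balance of Cyp2e1 against Pck1 in the 12 nearest cells. Cyp2e1, a cytochrome that oxidises ethanol and other small molecules, marks hepatocytes near the central vein. Pck1, a key enzyme of gluconeogenesis, marks those near the portal tract. Cells of each section were split by rank into 5 bins, from the Pck1 end (bin 1) to the Cyp2e1 end (bin 5). Tied cells shared 1 rank and fell in 1 bin, so bins could be unequal, as with 3320 cells in bin 1 and 967 in bin 2 at 6 mo.

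Double-cyclin cells were most frequent in the middle of the axis in most sections, and in most of them least frequent at the Cyp2e1 end. In 24 h section 1 they made up 2.47% of cells in bin 1, 19.3% in bin 4 and 4.25% in bin 5. In 24 h section 2 the shares were 2.51% in bin 1, 16.4% in bin 3 and 0.763% in bin 5. At 48 h section 1 had its highest share, 17.0%, in bin 4, with 2.91% in bin 1 and 7.60% in bin 5, so there the Pck1 end was the poorer one. Section 2 at that time peaked at 19.0% in bin 3 and had 6.52% in bin 5. At 72 h the peak was 13.9% in bin 2 of section 1 and 10.6% in bin 3 of section 2, and the Cyp2e1 end had 2.50% and 2.20%. At 14 d the Pck1 end was as rich as the middle in section 1, with 3.01% in bin 1 and in bin 3, and bin 5 had 0.392%. The 6 mo section had 0.633% in bin 1, its highest, and none of 2143 cells in bin 5, which allows a share of up to 0.14%. Cells with at least 5 Ccnd1 transcripts and no Ccne1 also peaked in bin 3 or 4 in the 24 to 72 h sections. They made up 6.35% of bin 1, 23.6% of bin 4 and 5.64% of bin 5 in 24 h section 1. In 72 h section 1 these shares were 16.1%, 34.1% and 16.1%. The peak inside the axis was thus not particular to double-cyclin cells.

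**Figure D2:**
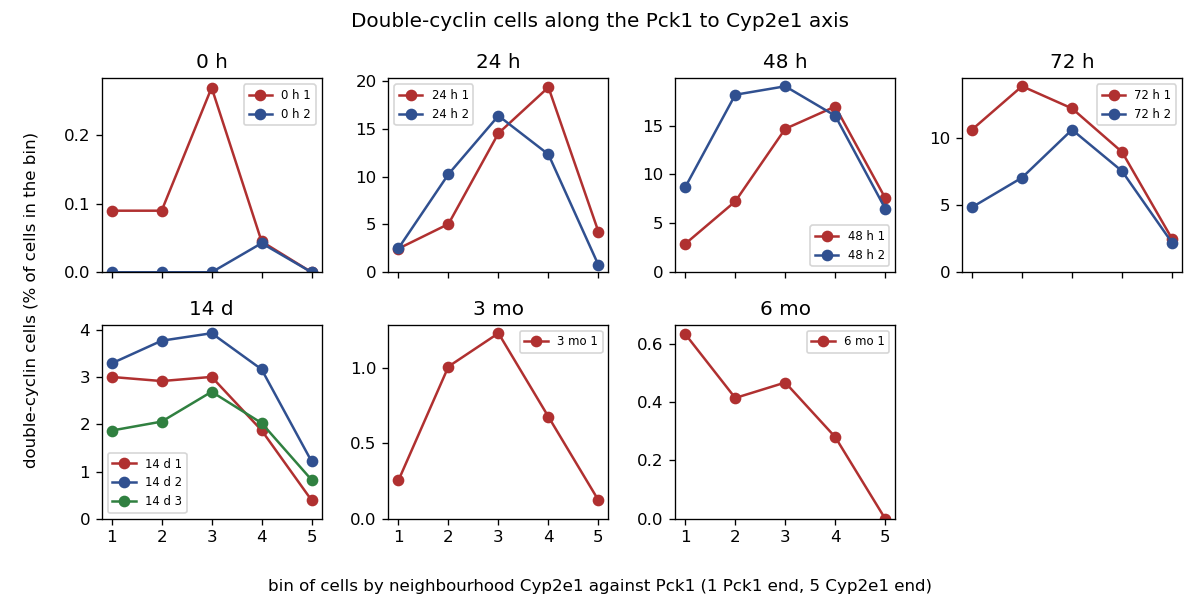
Share of double-cyclin cells (y axis, percent of cells in the bin, with a scale for each time) by bin of the neighbourhood axis (x axis, 1 at the Pck1 end, 5 at the Cyp2e1 end), with 1 line for each section. The 24 to 72 h sections peak in bins 2 to 4, and 24 h section 1 has 19.3% in bin 4 against 4.25% in bin 5.

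Whether the double-cyclin cells lay nearer one end than both-zero cells was tested over the 10 libraries with at least 20 cells of each class, which leaves out 0 h. On the axis of the cell's own Cyp2e1 and Pck1 counts, their median percentile (0 at the Pck1 end, 100 at the Cyp2e1 end) was 59.5 against 22.8 in 24 h section 1 but 48.5 against 70.7 in 24 h section 2, which joined gave 55.1 against 22.8. It was 61.4 against 25.9 in 48 h section 1 and 48.5 against 64.7 in section 2. It was 40.1 against 68.8 in 72 h section 1 and 43.2 against 59.0 in 14 d section 2. The direction differed between libraries, with the double-cyclin cells nearer the Cyp2e1 end in 3 of 10. The mean difference was -5.85 percentile points, which did not pass an exact two-sided sign-flip test over libraries (p = 0.434, n = 10, smallest possible p 0.00195), and leaving out 1 section at a time gave -11.3 (without 24 h section 1) to -3.31 (without 72 h section 1).

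Distance from the middle of the neighbourhood axis, a measure added after the bins were seen, was compared as well. The median distance from the 50th percentile was 14.4 points in double-cyclin cells against 38.4 in both-zero cells at 24 h. It was 17.0 against 35.4 and 17.8 against 41.4 at 48 h, and 19.7 against 37.7 and 16.8 against 35.9 at 72 h. At 14 d it was 19.1, 20.1 and 17.0 against 31.0, 31.0 and 29.8, and at 3 mo 14.0 against 36.5. The 6 mo library had 34.5 in both classes. That is the distance of a block of tied cells at the Pck1 end, all given percentile 15.5, so the equal values reflect the ties. Such blocks also filled bin 1 of 48 h section 1 (2821 cells, 1049 in bin 2) and of 24 h section 1 (1496 cells, 1091 in bin 2). The both-zero values of 35.4 in 48 h section 1 and 38.4 at 24 h are the distances of those blocks. The size of these 2 gaps therefore also reflects ties. The mean difference was -16.1 points, with lower values in 9 of 10 libraries (exact two-sided sign-flip permutation test, p = 0.00391). The pattern had already been seen in these same sections. Both classes were chosen by Ccnd1, whose mean count itself peaked in bin 3 or 4 in every section from 24 to 72 h, and in bins 1, 2 and 3 at 14 d. The test cannot separate position from that choice, and its p-value adds no support of its own. The difference was -16.2 points against both-zero cells of matched depth.

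**Figure D3:**
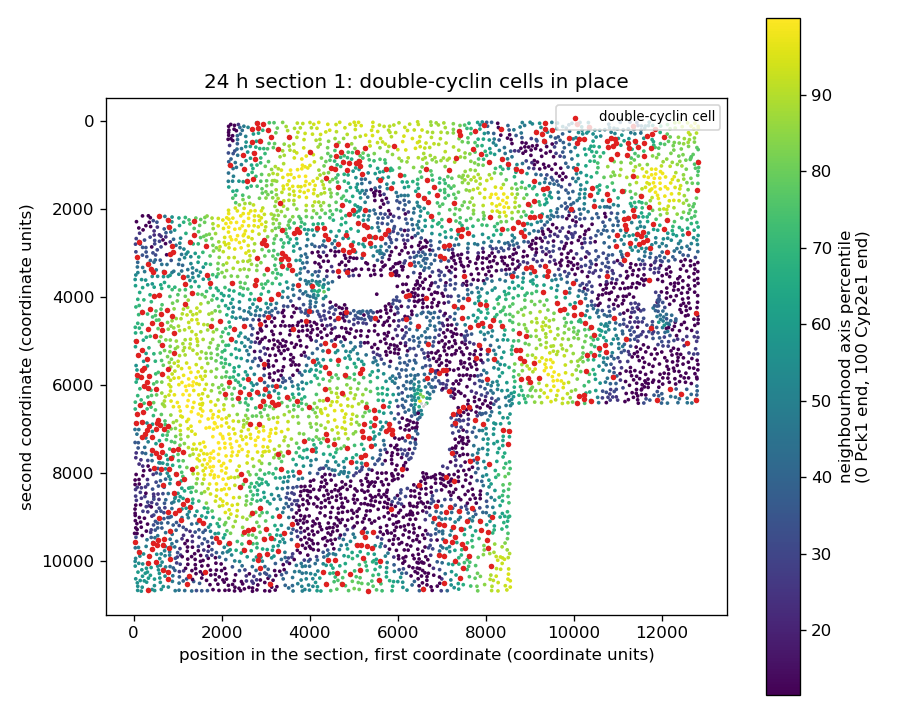
Cells of 24 h section 1 at their positions in the section (both axes in coordinate units, whose length is not given). Colour shows the neighbourhood axis percentile from the Pck1 end (dark) to the Cyp2e1 end (yellow), and red points are the 585 double-cyclin cells, which lie mostly in the green zones between the ends.

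Double-cyclin cells often lay beside each other. Among the 6 nearest cells of a double-cyclin cell, 18.4% and 20.03% were double-cyclin cells at 24 h, 20.01% and 21.5% at 48 h, and 14.0% and 11.8% at 72 h. The share expected from the bin in which each cell lay was 14.0% and 12.6% at 24 h, 12.7% and 15.6% at 48 h, and 11.2% and 7.68% at 72 h. Beside both-zero cells, 1.91% to 5.48% of the nearest cells were double-cyclin cells at these times. Cells with at least 5 Ccnd1 transcripts and no Ccne1 came closer to the double-cyclin cells in this. Beside them the shares were 16.0% and 14.5% at 24 h, 14.0% and 17.1% at 48 h, and 12.5% and 9.47% at 72 h. At 14 d the shares around double-cyclin cells were 5.06%, 4.82% and 3.12%, against 2.70%, 3.38% and 2.09% from the bins. Around the cells with Ccnd1 and no Ccne1 they were 3.32%, 4.19% and 3.10% at 14 d. These values belong to the rule and carry no test.

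Nearly all double-cyclin cells, like nearly all cells of the sections, carried hepatocyte transcripts. A share that differed between times also carried transcripts of other cell types. At least 5 counts of the hepatocyte markers Cps1, Cyp2e1, Pck1, Arg1, Ass1, Fbp1, Vtn and Pon1 were found in 98.0% or more of double-cyclin cells in every section. Among both-zero cells the share was 90.8% (72 h section 2) to 98.3% (72 h section 1), and 129173 of all 131221 cells reached this level. The level thus does not set double-cyclin cells apart. At least 5 counts of another type's markers were found in 23.8% and 21.4% of them at 24 h, against 11.5% and 15.3% of both-zero cells. At 48 h the shares were 26.1% and 31.9%, against 10.6% and 12.9%. At 72 h they were 54.3% and 43.2%, against 16.1% and 11.3%. At 14 d they were 57.2%, 57.8% and 50.2%, against 16.2%, 16.6% and 15.4%.

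At 14 d the endothelial markers Pecam1, Wnt2, Wnt9b and Rspo3 reached that level in 26.1% to 35.6% of double-cyclin cells, against 8.07% to 9.01% of both-zero cells. The macrophage markers Adgre1 and Lyz2 did so in 23.4% to 34.2%, against 7.71% to 8.06%. The stellate cell marker Lrat did so in 23.4% and 12.6% at 72 h, against 5.94% and 2.78%. The biliary and progenitor markers Sox9 and Cldn7 reached it in 4.92% to 7.004% at 72 h and 14 d, against 0.0472% to 0.153% of both-zero cells. An outline that holds markers of 2 types may cover parts of several cells, which was not tested. Without all cells at that level the double-cyclin share was 8.75% and 8.39% at 24 h, 8.83% and 12.3% at 48 h, and 6.75% and 4.89% at 72 h. At 14 d it was 1.51%, 2.10% and 1.42%.

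**Figure D4:**
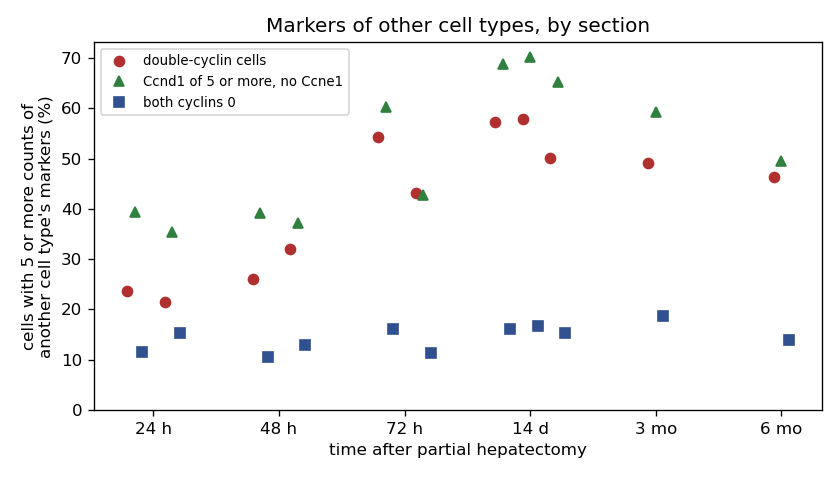
Share of cells with at least 5 counts of another cell type's markers (y axis, percent) in each section with at least 20 double-cyclin cells, by time (x axis). Double-cyclin cells (red) lie between 21.4% and 57.8%, above both-zero cells (blue squares, 10.6% to 18.7%) in each section. Cells with Ccnd1 of 5 or more and no Ccne1 (green) lie above the double-cyclin cells in every section but 72 h section 2.

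The other genes were compared between double-cyclin and both-zero cells of the same library. For each class and library the cell counts were added up, leaving out Ccnd1 and Ccne1. Levels are given as CPM over the other 98 genes, with TMM scaling. Of 90 genes tested, 15 were higher (16.7%) and 27 lower (30%) in double-cyclin cells at an adjusted p under 0.05 (46.7% called in all). Genes of the pericentral hepatocyte program were among the largest falls. Of the 16 pericentral genes, 11 fell and none rose, with a median log2 difference of -0.70, against -0.14 over all genes tested.

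Glul, glutamine synthetase, whose hepatocyte expression is held to the innermost cells around the central vein, had 888 to 2576 CPM in double-cyclin cells (median 1566), against 6043 to 45794 CPM in both-zero cells (median 15833). The ranges did not overlap, and the log2 difference was -3.44 ± 0.37 (SE; edgeR with Benjamini-Hochberg, adjusted p = 6.46e-06). Oat, ornithine aminotransferase, differed by -2.57 ± 0.27 (edgeR with Benjamini-Hochberg, adjusted p = 1.95e-06). Cyp2e1 had 38608 to 105839 CPM, against 129556 to 573394 CPM, again with no overlap, and differed by -2.25 ± 0.21 (edgeR with Benjamini-Hochberg, adjusted p = 5.83e-08).

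Several pericentral genes of the Wnt pathway were lower in all 10 libraries, but not Znrf3, which like Rnf43 removes Wnt receptors (-0.28, lower in 8 of 10; edgeR with Benjamini-Hochberg, adjusted p = 0.0802). Lgr5, a receptor for R-spondins, differed by -2.28 on the log2 scale. The transcription factor gene Tbx3 differed by -2.13, Axin2, a feedback inhibitor, by -1.71, and Rnf43 by -1.13. Wnt9b, a ligand made by central vein endothelium, differed by -3.01, with 0 to 147 CPM in double-cyclin cells, against 174 to 1232 CPM in both-zero cells. Rspo3, the R-spondin made there, differed by -0.83 (lower in 8 of 10). Each of these genes passed edgeR's test.

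Of the 10 periportal genes, 3 fell and none rose, the same share as the 30% of all genes tested, with a median of -0.19 against -0.14 over all. Pck1 had 56511 to 196321 CPM in double-cyclin cells (median 134028), against 111908 to 338061 CPM in both-zero cells (median 195710). These ranges overlapped, and the difference was -0.55 ± 0.13 (edgeR with Benjamini-Hochberg, adjusted p = 0.00181). G6pc, the last enzyme of glucose release, differed by -0.80 in 10 of 10 libraries. All 4 bile acid genes fell: Cyp7a1, the rate-limiting enzyme of synthesis, by 1.18, Cyp8b1, which sets the kind of bile acid made, by 0.91, Csad by 0.72 and Cyp27a1 by 0.50 on the log2 scale.

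Of the 10 markers of other cell types tested, 6 were higher and 2, the endothelial genes Wnt9b and Rspo3, were lower. Cldn7 differed by 2.89, the macrophage gene Adgre1 by 1.38, the leukocyte gene Ptprc by 1.27, Lyz2 by 1.19 and Lrat by 0.79, each in 10 of 10 libraries. Sox9 differed by 1.54 in 9 of 10. Pecam1, of endothelium, differed by 0.34 and did not pass (edgeR with Benjamini-Hochberg, adjusted p = 0.0534). Of 29 Wnt ligand and receptor genes tested, 5 rose and 6 fell, against 16.7% and 30% of all genes tested, with a median of 0.07. Wnt4 differed by 1.65 and Fzd1, a Wnt receptor, by 0.74. Once cells rich in other types' markers were left out of both classes, 5 genes were higher (5.68%) and 16 lower (18.2%) of 88 (23.9% called in all), and with total counts 49 and 9. Wnt4 (0.53) and Fzd1 (0.26) did not pass there. The markers themselves set that filter, so their values after it are not read.

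Igfbp2, a binding protein for insulin-like growth factors made by hepatocytes, was higher in double-cyclin cells in 10 of 10 libraries. It had 16055 CPM at 24 h, against 7859 CPM in both-zero cells. At 48 h it had 29364 and 24301 CPM, against 13245 and 8811 CPM, and at 72 h 25435 and 34005 CPM, against 9633 and 15007 CPM. At 14 d the levels were 15549, 12279 and 12203 CPM, against 13825, 9846 and 10319 CPM. The 3 mo and 6 mo libraries had 24509 and 36035 CPM, against 15214 and 35298 CPM. The gap was wide from 24 to 72 h and narrow at 14 d, and over all libraries the difference was 0.73 ± 0.17 on the log2 scale (edgeR with Benjamini-Hochberg, adjusted p = 0.00133). Igf1 and Igfals, of the same axis, differed by -0.06 and -0.28 and did not pass. Epas1, which encodes the hypoxia factor HIF-2α, differed by 0.49 in 10 of 10 libraries.

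The scaling moved these values. With total counts in place of TMM the log2 differences moved up by 0.63 at the median gene, and 56 genes were higher and 13 lower. Pck1 (0.08), Cyp27a1 (0.12), Lect2 (0.07), Igf1 (0.57) and Gstm3 (0.42) then changed sign. Glul, Oat, Cyp2e1, Lgr5, Tbx3, Axin2 and Rnf43 were lower and Igfbp2 higher under both scalings.

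**Figure D5:**
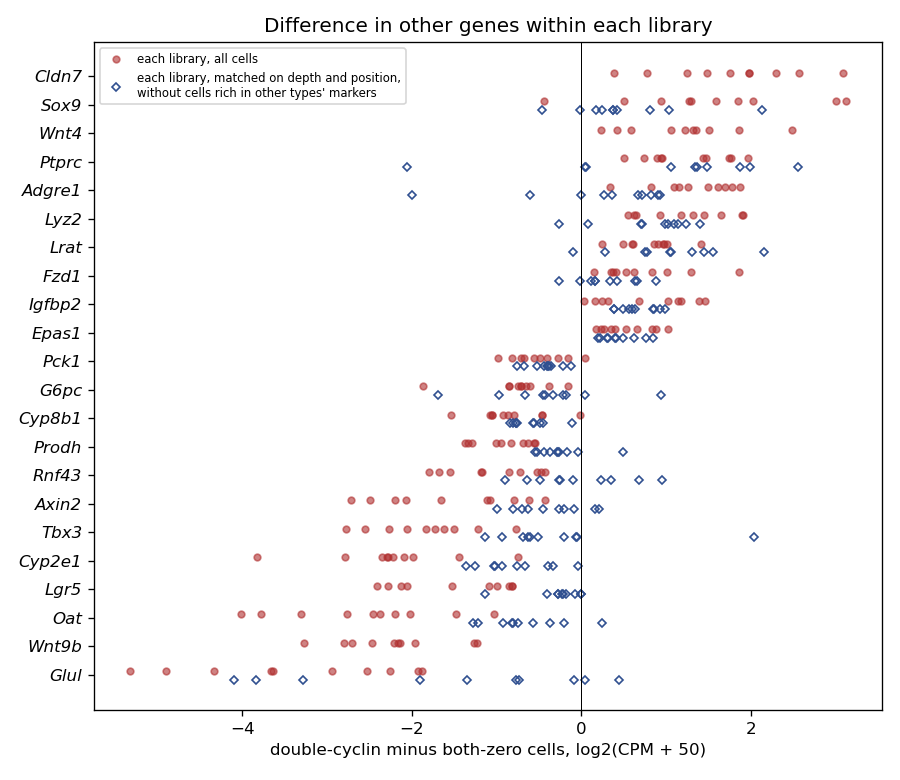
Difference between double-cyclin and both-zero cells (x axis, log2 of CPM + 50) for 22 genes (rows). Red points are the 10 libraries with all cells, and blue diamonds the same libraries with both-zero cells matched on depth and position and without cells rich in other types' markers. Glul, Cyp2e1 and Oat lie far to the left with all cells and nearer 0 after matching, and Igfbp2 stays right of 0 in all 10 libraries in both.

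Both-zero cells were then matched to the double-cyclin cells. With 1 both-zero cell of like depth drawn for each double-cyclin cell while such cells lasted (5069 pairs), 22 genes were higher (27.2%) and 20 lower (24.7%) of 81 (51.9% called in all), and with total counts 51 and 9. Glul differed by -3.25, Oat by -2.43, Cyp2e1 by -2.08, Pck1 by -0.39 and Igfbp2 by 0.88. With depth and bin of the neighbourhood axis matched together (3554 pairs), 19 were higher (23.2%) and 29 lower (35.4%) of 82 (58.5% called in all), and with total counts 43 and 10. The pericentral differences were then smaller: -1.50 for Glul, -0.82 for Oat, -1.05 for Cyp2e1 and -0.57 for Axin2. Igfbp2 differed by 0.24 ± 0.07 there and was higher in 6 of 10 libraries (edgeR with Benjamini-Hochberg, adjusted p = 0.00561), the smallest of its differences from both-zero cells given here. In that comparison 9 of the 10 periportal genes fell, Pck1 by 0.75 on the log2 scale, of which Apof (0.12), Arg1 (0.16) and Gls2 (0.09) changed sign with total counts. There 8 of the 10 markers of other cell types rose, among them Pecam1 by 1.10 and Adgre1 by 1.93 on the log2 scale.

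With depth and position matched and the cells rich in other types' markers left out (2139 pairs), 21 genes were higher (28.8%) and 12 lower (16.4%) of 73 (45.2% called in all), and with total counts 36 and 6. Igfbp2 had 15484 to 52129 CPM in double-cyclin cells (median 24456), against 10217 to 35225 CPM in both-zero cells (median 14039). It was higher in 10 of 10 libraries, by 0.71 ± 0.06 (edgeR with Benjamini-Hochberg, adjusted p = 2.35e-10). Epas1 differed by 0.50 and Lrp5, a Wnt co-receptor, by 0.51, each in 10 of 10. Cyp2e1 differed by -0.74, Cyp8b1 by -0.57 and Pck1 by -0.39, each lower in 10 of 10. Cyp2e1 and Pck1, the 2 genes of the axis, were thus both lower in double-cyclin cells at matched position, while Gstm2 (0.42), Gstm3 (0.38), Rgn (0.40) and Pon1 (0.29) were higher. Of the 16 pericentral genes 4 rose and 4 fell, and of the 10 periportal genes 1 rose, 3 fell and 6 were not called. None of the 33 called genes changed sign with total counts. The markers that set the filter gave 6 of the 21 higher genes, and their values after it are not read as a result. Below that filter Pecam1 (1.06), Lrat (1.14), Lyz2 (1.01) and Ptprc (1.72) were still higher, at 1056, 1198, 592 and 219 counts in double-cyclin cells. Their part in the other differences was not tested. Lrp5, Gstm2, Rgn and Pon1, and Hsd17b13, Arg1 and the genes named for neighbouring cells, were picked out after their values were seen.

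Cells with as much Ccnd1 but no Ccne1 are a closer comparison, since Ccnd1 passes the threshold in both classes. The libraries held 638 to 2576 of them. The double-cyclin cells lay nearer the Pck1 end of the neighbourhood axis in 8 of 10 libraries, by 6.13 percentile points on average (exact two-sided sign-flip permutation test, p = 0.0176). Of 89 genes tested, 9 were higher (10.1%) and 13 lower (14.6%), 24.7% called in all. Hsd17b13, a lipid droplet enzyme, had 3111 to 13398 CPM in double-cyclin cells (median 9771), against 2487 to 9991 CPM in cells without Ccne1 (median 6918). The ranges overlapped, and it differed by 0.31 ± 0.06 (edgeR with Benjamini-Hochberg, adjusted p = 0.000981). Pck1 differed by 0.23, G6pc by 0.45 and Arg1, arginase of the urea cycle, by 0.15, each higher in 10 of 10 libraries. In all, 6 of the 10 periportal genes were higher and none lower. The part of position in the gene differences of this comparison was not tested.

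Lower in that comparison were Glul (-0.56), Oat (-0.60) and Cyp2e1 (-0.51), though Oat (-0.43) and Cyp2e1 (-0.38) did not pass without 72 h section 2, nor Cyp2e1 (-0.36) without the 6 mo section. Without 72 h section 2, 20 genes were higher and 7 lower. Markers of other cell types were lower too, with Pecam1 at 2339 to 7090 CPM in double-cyclin cells, against 3549 to 11222 CPM in cells without Ccne1. Pecam1 differed by -0.65 ± 0.08 (edgeR with Benjamini-Hochberg, adjusted p = 7.18e-05), and Lyz2, Lrat and Wnt9b by -0.49, -0.46 and -1.13, each in 10 of 10 libraries. The cells without Ccne1 were rich in other types' markers in 35.4% to 70.1% of cases by section. With cells rich in such markers left out of both classes, 5 genes were higher (6.02%) and 13 lower (15.7%) of 83 (21.7% called in all). Of the 13 lower genes, 7 were markers that set this filter, and they are not read. Hsd17b13 (0.28) and Glul (-0.62) still passed, while Pck1 (0.20), G6pc (0.33) and Arg1 (0.12) did not. Epas1, higher than in both-zero cells, was lower here, by -0.28 before that step and -0.18 after it (edgeR with Benjamini-Hochberg, adjusted p = 0.00146 and 0.0377). Igfbp2 differed by 0.19 before it and did not pass (edgeR with Benjamini-Hochberg, adjusted p = 0.0731). After it the Igfbp2 difference was 0.17 and passed (edgeR with Benjamini-Hochberg, adjusted p = 0.0412).

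The surroundings were compared among cells of neither class. Those with a double-cyclin cell among their 6 nearest cells had 4 genes higher (4.3%) and 8 lower (8.6%) of 93 than those with none (12.9% called in all, and 29 and 9 genes with total counts), over 11 libraries that include 0 h section 1. Wnt9b was lower in 11 of 11 libraries, with 0 to 181 CPM, against 105 to 518 CPM, and differed by -1.84 ± 0.20 (edgeR with Benjamini-Hochberg, adjusted p = 1.4e-05). Rspo3 (-0.86), Wnt2 (-0.56) and Pecam1 (-0.30) were also lower, as were Glul (-1.55) and Oat (-1.15). Igfbp2 (0.33), Igfals (0.36), the receptor gene Fzd5 (0.23) and Lgr4 (0.30) were higher. The 2 sets of cells were not matched on position, whose part in these differences was not tested.

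Over time, double-cyclin cells at 24 to 72 h were set against those at 14 d, since the 0 h sections held only 12. Of 80 genes tested, 28 were higher (35%) and 29 lower (36.2%) at 24 to 72 h (71.2% called in all), and with total counts 14 and 35. Without 14 d section 2 there were 18 higher, and without 24 h section 2 there were 18 lower. Gstm3, a glutathione transferase, had 41720 CPM at 24 h, 70130 and 48532 CPM at 48 h, and 21188 and 17109 CPM at 72 h, against 4710, 4801 and 4101 CPM at 14 d. It differed by 2.77 ± 0.18 (edgeR with Benjamini-Hochberg, adjusted p = 2.32e-12). Cyp1a2 differed by 2.30, the heme enzyme gene Cpox by 1.98, Elovl2, which lengthens fatty acids, by 1.96 and Znrf3, which removes Wnt receptors, by 1.84. Wnt11 differed by -2.45, Wnt2b by -2.17, Cyp8b1 by -2.12, Axin2 by -1.74 and Csad by -1.73.

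Both-zero cells moved in the same contrast as well, with 19 of 88 genes higher (21.6%) and 24 lower (27.3%), 48.9% called in all. Gstm3 differed there by 2.38, Cpox by 1.82 and Cyp8b1 by -2.57, the same sign as in double-cyclin cells. Axin2 differed by -0.28 in both-zero cells, and the test of the difference between the classes gave -1.02 (edgeR with Benjamini-Hochberg, adjusted p = 0.0537). That test scaled both classes together, while the values of each class were scaled within it, so it is not their subtraction. Igfbp2 differed by 0.84 in double-cyclin cells and by -0.13 in both-zero cells, and it passed the test between the classes (1.33 ± 0.18; edgeR with Benjamini-Hochberg, adjusted p = 0.00139). That test of time dependence was passed by 9 genes with a positive (10%) and 1 with a negative difference (1.11%) of 90, 11.1% called in all. The median over the 90 genes was itself positive, at 0.33. With total counts the balance turned, with 1 positive and 8 negative, and with comparison cells of matched depth there were 1 and 3. Leaving out single sections gave 1 to 32 genes higher and 1 to 8 lower in it. The share of double-cyclin cells rich in other types' markers also differed between these times (21.4% to 54.3% at 24 to 72 h, against 50.2% to 57.8% at 14 d), and its part was not tested.

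Against the 12 double-cyclin cells at 0 h, 13 of 80 genes were called at 24 h (16.2%), 8 at 48 h (10%), 10 at 72 h (12.5%) and 9 at 14 d (11.2%). Without 0 h section 1, which held 11 of those cells, 1, 3, 1 and 2 genes were called at these times. Over transcripts in place of cells, Ccne1 transcripts lay nearer the Pck1 end than the middle of the axis in 9 of 11 libraries, by 11.5 percentile points on average over tiles of 400 coordinate units. The tiles rest on Ccne1 itself, so this is given as a description.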

How the data were processed

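The authors deposited, per section, a table of whole-number transcript counts per gene and cell outline, and for all but 1 section a list of decoded transcripts with coordinates (unit not given). The sources used here give no decoding or cell-outlining method; the labels' protocols name Molecular Cartography by Resolve Biosciences on frozen sections. Cell names were found to hold the cell's position: Glul counts followed Glul transcripts within 50 units of it. Such names carry no identity across sections.

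Counts as deposited were summed over the cells of each class and library and fitted with edgeR 4.0.16 (R 4.3.3; glmQLFit, robust) with TMM scaling, library as block, a filter of 10 or more counts in 4 or more class sums, classes of at least 20 cells (a minimum not applied to the contrasts with double-cyclin cells at 0 h), and Benjamini-Hochberg adjustment over all genes tested. The block leaves 9 residual degrees of freedom. Ccnd1 and Ccne1 were left out of totals and tests. Matching drew both-zero cells of the same section in depth bins of 0.5 on the log2 scale. Own-cell axis values needed at least 10 counts of Cyp2e1 and Pck1. Positions were tested by exact sign flips over libraries.

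Named genes were the 10 largest rises and falls with 1 sign in every library, up to 2 per list, and 14 fixed names. The cells, lists and tests were chosen with earlier results of these data known. On simulated counts of 90 genes with 20 changed, the class fit recovered on average 12, 19.4 and 20 at folds of 1.5, 2 and 4, with 0.4, 1.4 and 2 false calls. Alternatives tried were scaling, DESeq2 1.42.0, filters, the block, thresholds, matching and leaving out each section. The planned contrasts of the class difference against 0 h were not run, since those sections held 11 and 1 double-cyclin cells.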

Additional observations from a re-analysis of the deposited data

Results flagged for a closer look

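The difference between double-cyclin and both-zero cells itself differed between 24 to 72 h and 14 d for 10 genes, by edgeR's test of the class by time term with Benjamini-Hochberg adjustment. For Igfbp2 the library differences were 1.03 to 1.46 at 24 to 72 h and 0.17 to 0.32 at 14 d on the log2 scale, and the fitted contrast was 1.33 (adjusted p = 0.00139, edgeR). For Glul they were -5.40 to -3.68 and -2.56 to -1.90, and the contrast was -2.09 (adjusted p = 0.00139, edgeR). The contrast was 1.07 for Pon1, 1.09 for the urea cycle gene Cps1, 1.29 for Cyp1a2, 0.91 for the complement gene C8b, 0.77 for Hpd, 1.21 for Cyp7a1, 1.13 for Cyp2e1 and 0.92 for Rgn. The library ranges of the 2 times overlapped for Cyp1a2 (-1.43 to 0.76 against -1.56 to -1.03), Cyp7a1 (-2.51 to 0.28 against -1.96 to -1.24) and Cyp2e1 (-2.28 to -0.75 against -2.79 to -2.22), and not for the others. Of the 6 named by the rule, Igfbp2 and Glul still passed with comparison cells of matched depth and with total counts, while Cps1, Cyp1a2, Cyp2e1 and Cyp7a1 passed in neither. Over all alternatives, Igfbp2 and Glul kept the call in 13 of 13. Cyp1a2, Cyp2e1 and Cyp7a1 each kept it in 5 and lost it in 8, and Cps1 kept it in 8 and lost it in 5. All 14 d sections share a slide that holds no other time, so the 2 cannot be told apart.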

How the results depend on the processing

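The share of double-cyclin cells depends on both thresholds and on depth. Over cells with at least 200 counts, thinned to 200, it was 0.0237% in 0 h section 1, 2.37% and 2.02% at 24 h, 2.58% and 3.99% at 48 h, 1.76% and 1.29% at 72 h, 0.241%, 0.298% and 0.203% at 14 d, 0.162% at 3 mo and 0.113% at 6 mo. With at least 10 Ccnd1 transcripts it was 0.0179%, 1.90% and 1.94%, 1.83% and 3.83%, 3.61% and 1.68%, 0.584%, 0.710% and 0.392%, 0.111% and 0.103% in the same order. With at least 2 Ccne1 transcripts it was 0.00895%, 3.66% and 3.51%, 3.72% and 5.59%, 3.19% and 1.78%, 0.444%, 0.556% and 0.379%, 0.111% and 0.0280%. Over cells with at least 100 counts the 24 h shares were 9.58% and 9.02%. The position against both-zero cells was -11.3 points with central and portal genes other than Cyp2e1 and Pck1 (exact sign-flip permutation p = 0.0488). Total counts gave 56 genes higher and 13 lower against both-zero cells, 51 and 9 at matched depth, 15 higher against cells with Ccnd1 alone, 29 higher beside double-cyclin cells, 14 higher at 24 to 72 h against 14 d, 1 and 8 for the class by time term, and 6 called at 72 h against 0 h. A minimum of 50 counts gave 23 higher, and 11 at matched depth. The fits with no replicate block, here the library, gave 9 higher and 12 lower, and 12 and 9 at matched depth. At least 10 Ccnd1 transcripts gave 23 higher. Without cells rich in other types' markers there were 5 higher and 16 lower, 9 higher at matched depth, 12 lower with position matched too, and 5 higher against cells with Ccnd1 alone, where DESeq2 gave 21. The class by time term gave 1 higher and 3 lower with cells of matched depth. Against 0 h, 18 genes were called at 48 h with no filter, and at 72 h 2 by DESeq2 and 6 with the replicate block. Section numbers did not pair the sections, with correlations of 0.0431, 0.102 and -0.15 between times. Among named genes called in the main fit or the alternative, signs turned with total counts for Cyp27a1 (0.12), Gstm3 (0.42), Igf1 (0.57), Lect2 (0.070) and Pck1 (0.080). At matched depth they turned with total counts for Cyp27a1 (0.12), Lect2 (0.019) and Pck1 (0.085). With depth and position matched they turned for Igf1 (-0.22) and Lect2 (0.0096), and without other types for Cyp1a2 (0.18), Cyp27a1 (0.011) and Lect2 (0.39). The cause of these changes was not tested. Leaving out 1 section at a time gave 12 to 21 higher and 22 to 29 lower against both-zero cells, 16 to 25 and 15 to 21 at matched depth, 8 to 20 and 7 to 16 against cells with Ccnd1 alone, and 2 to 7 and 6 to 11 beside double-cyclin cells. It gave 18 to 34 and 18 to 30 for 24 to 72 h against 14 d, and 1 to 32 and 1 to 8 for the class by time term. Against 0 h it gave 1 to 16 at 24 h, 3 to 9 at 48 h, 1 to 13 at 72 h and 2 to 10 at 14 d. Positions ranged over -11.3 to -3.31 against both-zero cells, -15.8 to -6.13 at matched depth and -7.05 to -4.89 against cells with Ccnd1 alone. The distance from the middle ranged over -17.9 to -15.3, and Ccne1 tiles over -12.7 to -10.7. For named genes, 1969 of the alternative values kept a call in the same direction or stayed uncalled, 130 lost the call and 53 gained it. A further 13 changed sign where the main fit or the alternative called the gene. Sign changes of genes called in neither were counted among the 1969, as for Igfals against both-zero cells (-0.38 to 0.31). Alternatives on position bins, other types' markers and the contrast with 14 d were chosen after seeing the data.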
